A study of Homo sapiens with 18 samples.

Results

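The integrin, collagen and laminin genes of 16D cells were followed over enzalutamide treatment. These genes encode the receptors that hold a cell to its extracellular matrix and the chains of the matrix proteins that many of those receptors bind. They were chosen by name, as every gene of the integrin alpha, integrin beta, collagen and laminin families without antisense or intronic transcripts, that reached 1 TPM, a length-corrected relative abundance, in at least 3 of the 18 libraries. Of 82 such names in the table, 36 passed, among 16169 passing genes of 60623 in all. They were 8 of 15 integrin alpha, 4 of 8 integrin beta, 18 of 47 collagen and 6 of 12 laminin genes, where the collagen names include pseudogenes.

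16D is an established human castration-resistant prostate cancer line, labelled as wild type, and was grown in RPMI with 10% serum and antibiotics. The treatment was enzalutamide at 10 µM, a prostate cancer drug that opposes androgen signalling, or DMSO as the solvent control, and RNA was sequenced from 3 libraries in each of 6 groups. Besides DMSO, the drug was given for 24, 48, 96 or 144 h or, in the group named long-term, for more than 2 months. One DMSO group served every time point and its harvest time is not given in the sources used here, so drug and time in culture cannot be told apart. The labels do not say whether the 3 libraries of a group came from separate cultures, so each p-value rests on a spread that may be technical. How the long-term cells were kept, and whether they were cloned, is not given in the sources used here.

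Integrins are membrane receptors of 1 alpha and 1 beta subunit, and the pair decides the ligand: some bind laminins, some collagens, some fibronectin and related glycoproteins. Laminins are trimers of an alpha, a beta and a gamma chain and form the first sheet of a basement membrane, on which type IV collagen lays a network. Other collagens form fibrils (types I, II, V, XI and XXVII), decorate fibrils (types IX and XVI), assemble microfibrils (type VI) or anchor the basement membrane (type VII). In the prostate, luminal cells lie apart from the basement membrane and basal cells rest on it through the integrin made of ITGA6 and ITGB4.

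The libraries carried the transcripts of a luminal prostate line. KRT8 and KRT18, keratins of luminal epithelium, lay between 139 and 272 TPM, and HOXB13 and FOLH1 were at 143.5 TPM or more in every library. KLK3, an androgen-responsive gene that encodes prostate-specific antigen, had a mean of 1021 TPM in DMSO, 34.2 TPM at 144 h and 142 TPM long-term. Of the defining markers of other cell types, KRT5 and CD3D were listed at 0 in all libraries, and PTPRC, PECAM1, PDGFRA and TP63 stayed at or below 0.07 TPM. The summed level of 12 fibroblast markers was 16.3 to 18.8 TPM in DMSO, 19.01 to 23.1 TPM at 144 h and 28.1 to 31.1 TPM long-term, where ACTA2 alone was at a mean of 16.6 TPM. Of these markers 5 passed the filter, and DCN was at most 0.16 TPM. At 144 h FBLN1 (0.59 ± 0.12 SE, adjusted p = 8.19e-04), S100A4 (0.46 ± 0.14 SE, adjusted p = 0.0149) and TAGLN (0.51 ± 0.19 SE, adjusted p = 0.0420) were called higher. ACTA2 was called lower at 144 h (-0.62 ± 0.12 SE, adjusted p = 5.12e-04). Long-term, ACTA2 (1.70 ± 0.12 SE, adjusted p = 5.04e-09) and S100A4 (0.47 ± 0.14 SE, adjusted p = 0.0105) were called higher. Of 6 basal epithelial markers 1 passed the filter: NGFR, a nerve growth factor receptor, had means of 0.237 TPM in DMSO, 1.0 at 144 h and 1.01 long-term and was called higher in both (0.69 ± 0.12 SE, adjusted p = 1.48e-04, and 0.70 ± 0.12 SE, adjusted p = 8.84e-05). NGFR was below 1 TPM in every DMSO library and passed only through treated libraries, so these calls are not independent of the filter. The 6 basal markers summed to 0.50 to 1.01 TPM in DMSO, 0.86 to 1.22 at 144 h and 1.02 to 1.41 long-term, and 8 endothelial markers to 3.58 to 3.86, 2.68 to 3.31 and 2.21 to 2.99 TPM. Of the endothelial markers 2 passed: ESAM lay between 0.66 and 1.87 TPM, and VWF between 0.54 and 2.66 TPM, with a lower call at 144 h (-0.51 ± 0.19 SE, adjusted p = 0.0376). Of 14 leukocyte markers, which include ITGB2, 13 never reached 1 TPM. Mitochondrially encoded genes took 19.4 ± 1.49% (SD, n = 3) of TPM in DMSO, 19.8 ± 2.34% at 144 h and 26.4 ± 3.91% long-term. The part of these markers and of the mitochondrial share in the results below was not tested, except by rescaling the values without mitochondrial genes. Fewer cells of a kind and less RNA per cell cannot be told apart in bulk RNA.

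Laminin transcripts outweighed collagen transcripts in these cells. TPM corrects for transcript length, so levels can be set side by side between genes. The 6 laminin genes summed to 366 ± 12.7 TPM in DMSO (SD, n = 3), the 18 collagens to 119 ± 6.75 TPM, the 8 integrin alpha genes to 82.1 ± 5.65 TPM and the 4 integrin beta genes to 166 ± 30.7 TPM. At 144 h the laminins summed to 621 ± 64.6 TPM and the collagens to 232 ± 50.7 TPM, and in the long-term libraries to 546 ± 25.6 and 198 ± 11.4 TPM. The lowest library of each was above the highest DMSO library, for both families in both groups. The integrin alpha sum was 94.03 ± 5.52 TPM at 144 h and 61.8 ± 6.99 TPM long-term, and the integrin beta sum 205 ± 34.2 and 135 ± 22.2 TPM. Long-term alpha sums, at 56.4 to 69.7 TPM, all lay below the DMSO range of 77.9 to 88.5 TPM, whereas the beta sums overlapped.

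Several partner chains were near absent. COL4A1, the usual partner of COL4A2, reached at most 0.18 TPM, COL6A3, another chain of classical type VI collagen, at most 0.33 TPM, and COL1A2, the partner of COL1A1 in type I collagen, was listed at 0 in all 18 libraries. LAMA3, a laminin alpha chain, and LAMB3, a beta chain, reached at most 0.73 and 0.19 TPM. Of the 46 names that did not pass, 44 never reached 1 TPM. ITGA1 and ITGB7 lay just outside the threshold, each with 2 libraries at 1 TPM and highest values of 1.27 and 1.03 TPM. COL11A2, COL23A1 and COL4A6 lay just inside, with 3 such libraries each. For COL23A1 these were the 3 DMSO libraries. A gene that is low in most groups passed only if it was high in one, so counts over the 36 say nothing of the 46. For the same reason, calls of such a gene between that group and the others are not independent of the filter.

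More of the 36 genes rose with each longer short-term treatment. Calls below are from limma on log2(TPM + 1), with Benjamini-Hochberg adjustment over all 16169 genes and a threshold of 0.05, and fold changes are on that scale, which understates the change of low genes. At 24 h, 4 rose and 2 fell, where 8.17% of all genes were called, 4.59% higher and 3.58% lower. At 48 h, 10 rose and 3 fell, against 17.5% of all genes called, 9.38% higher and 8.08% lower. At 96 h, 16 rose and 4 fell, against 29.2% of all genes, 16.5% higher and 12.7% lower. At 144 h, 19 rose and 4 fell, against 42.9% of all genes, 26.6% higher and 16.4% lower. Against DMSO the long-term libraries had 11 genes higher and 9 lower, beside 52.0% of all genes, 18.1% higher and 33.9% lower. Thus 63.9% of the 36 were called at 144 h and 55.6% long-term, the latter close to the share of all genes. Their median log2 fold change was 0.37 at 144 h, where all genes had 0.07, and 0.03 long-term, where all genes had -0.12. The libraries of the 2 groups did not overlap for 12 of the 36 genes at 24 h, 22 at 48 h, 22 at 96 h, 22 at 144 h and 23 long-term. Among all genes that share was 27.3%, 39.8%, 41.1%, 50.1% and 57.4%, in the same order. The bar chart of called shares sets the genes beside all genes in each comparison.

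**Figure D1:**
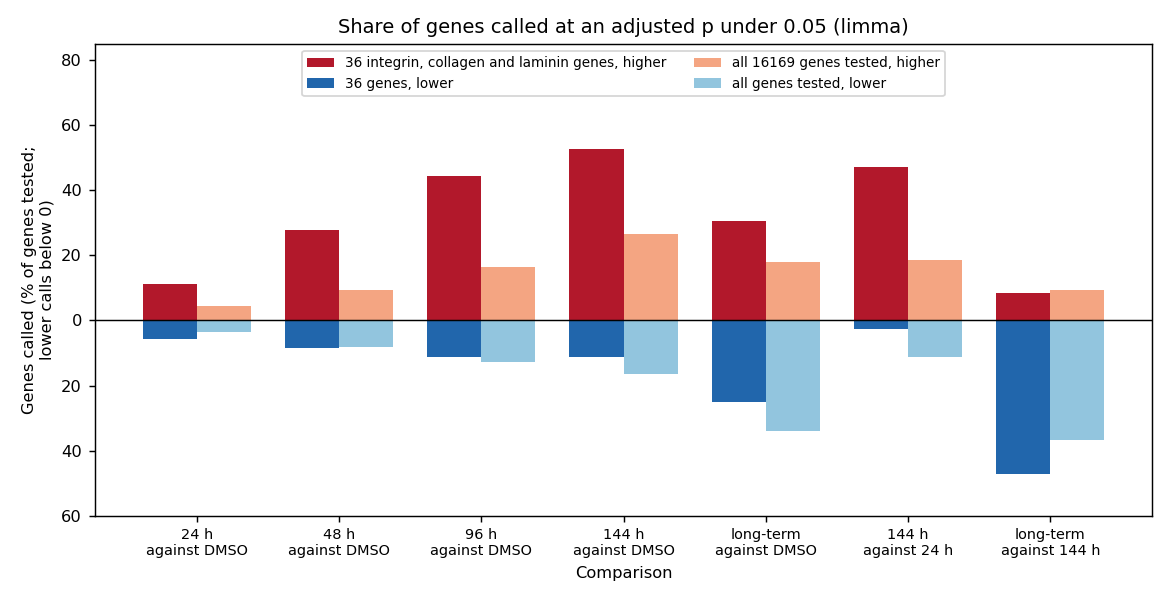
Share of genes called in each of 7 comparisons, in percent of the genes tested; bars above 0 are higher calls and bars below 0 lower calls, dark for the 36 integrin, collagen and laminin genes and pale for all 16169 genes. At 144 h against DMSO 19 of the 36 were higher and 4 lower, and for long-term against 144 h 3 were higher and 17 lower.

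These counts depend in part on how libraries are scaled. Under median-of-ratios scaling the 144 h count was 18 higher and 4 lower and the long-term count 14 higher and 8 lower. The 24 h split became 3 higher and 3 lower under that scaling, and the 48 h split 10 and 5. For long-term against 144 h, 3 higher and 17 lower became 6 and 10 under median-of-ratios or quantile scaling. Rescaled without mitochondrially encoded genes, that comparison had 4 higher and 11 lower, while 19 were higher and 4 lower at 144 h and 13 and 8 long-term against DMSO. Among all genes under median-of-ratios scaling, the share of calls that were higher moved from 61.9% to 48.6% at 144 h and from 34.8% to 49.4% long-term. Scaling moved the median of all genes by 0.12 long-term against DMSO and by 0.20 for long-term against 144 h, so changes of that size in those comparisons are within the choice of scale. The 3 DMSO libraries serve as controls in each of the 5 comparisons with DMSO.

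Of the 36 genes, 6 were called in all 5 comparisons with DMSO. COL16A1, COL6A1, ITGA3 and LAMB2 were higher in each, and COL23A1 and LAMA1 lower in each, although at 24 h the calls of COL6A1 and LAMB2 ended without any of several libraries, at adjusted p of 0.0561 to 0.134 and 0.0634 to 0.132. The call of COL16A1 at 96 h ended without DMSO replicate 1 (0.0616), and that of COL23A1 at 48 h without DMSO replicate 2 or 48 h replicate 1 (0.0509 to 0.0522). COL23A1 reached 1 TPM in the 3 DMSO libraries only, and LAMA1 in 5 libraries that included all of DMSO. Both thus passed the filter through DMSO, where they were highest, so their lower calls are not independent of the filter. They were the 2 lower calls at 24 h. The limit also holds for some rises. COL2A1, COL5A1, COL27A1, ITGB2 and COL5A2 were below 1 TPM in every DMSO library and passed only through treated libraries. Their higher calls against DMSO are thus not independent of the filter either. COL4A6 passed through DMSO and long-term libraries, so the same holds for its lower calls. By first call, 6 more rose at 48 h (COL27A1, COL2A1, COL5A1, COL6A2, ITGA5 and ITGB4), 6 at 96 h (COL18A1, COL1A1, COL5A2, COL9A2, ITGB2 and LAMB1) and 3 at 144 h (COL26A1, ITGA2B and LAMA5). COL4A6 was first lower at 48 h and ITGA6 at 96 h. Among these first calls, single libraries ended those of COL27A1 (DMSO replicate 1, 0.0514), COL5A1 (48 h replicate 3, 0.0543) and ITGA5 (DMSO replicate 3, 48 h replicate 1 or 3, 0.0544 to 0.0896) at 48 h. At 96 h they ended those of COL5A2 (any DMSO library, 96 h replicate 2 or 3, 0.0534 to 0.144) and ITGB2 (DMSO replicate 1, 96 h replicate 1, 0.0648 to 0.0716). The 3 first calls at 144 h are qualified in the same way below. No comparison called COL11A2, COL7A1, ITGA2, ITGAV or ITGB5. The heat map shows each gene in each library.

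**Figure D2:**
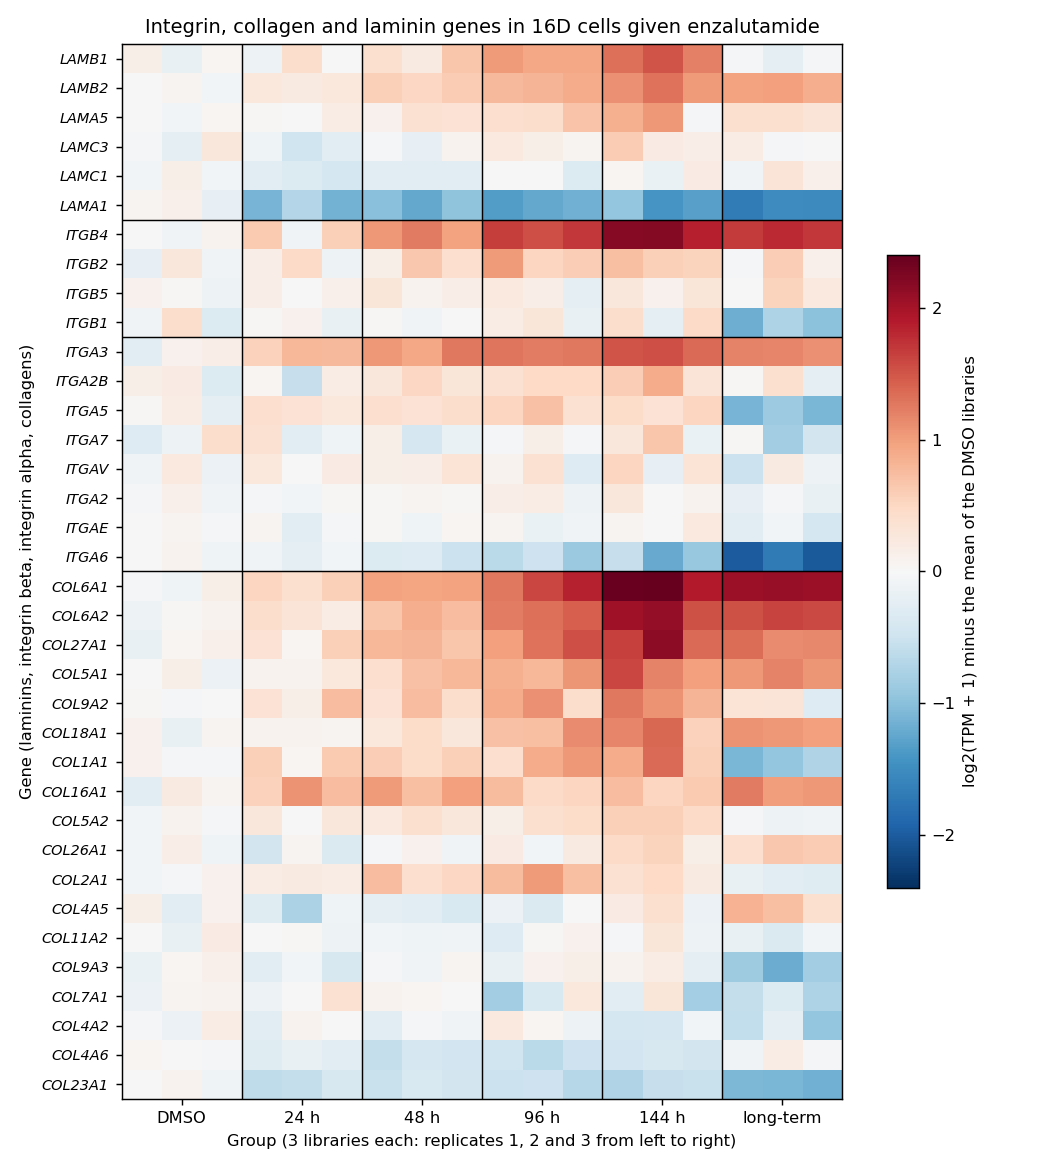
Heat map of the 36 genes (rows) in the 18 libraries (columns, 3 for each group), as log2(TPM + 1) minus the mean of the 3 DMSO libraries; red is higher and blue lower than DMSO. COL6A1, COL6A2, ITGB4, ITGA3 and LAMB2 are red from 48 h on and stay red long-term, whereas LAMB1 and COL1A1 are red at 144 h and pale or blue long-term.

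Among integrin beta subunits, ITGB4 rose and ITGB1 fell, at different times. ITGB4, whose product pairs with that of ITGA6 in the hemidesmosome, had 2.57, 2.36 and 2.75 TPM in the DMSO libraries, 4.51, 2.35 and 4.27 at 24 h and 6.35, 7.48 and 5.91 at 48 h. It had 10.3, 9.45 and 10.5 TPM at 96 h, 15.1, 15.4 and 12.04 at 144 h and 10.4, 11.4 and 10.5 long-term. The 24 h libraries overlapped DMSO, and from 48 h on every library lay above it. The log2 fold change was 1.09 ± 0.15 (SE), adjusted p = 9.16e-05 at 48 h, 2.09 ± 0.15 (SE), adjusted p = 1.82e-08 at 144 h and 1.72 ± 0.15 (SE), adjusted p = 8.52e-08 long-term.

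ITGB1, the beta subunit shared by most laminin, collagen and fibronectin receptors, had 95.5, 136 and 80.6 TPM in DMSO, 103, 109 and 89.6 at 24 h and 103, 95.7 and 100.7 at 48 h. Its values were 116, 124 and 89.1 TPM at 96 h, 136, 85.9 and 140.0 at 144 h and 44.6, 60.2 and 50.6 long-term. Treated libraries up to 144 h overlapped the wide DMSO range, and the 3 long-term libraries lay below every other library. The long-term log2 fold change against DMSO was -0.97 ± 0.19 (SE), adjusted p = 5.29e-04, and the change at 144 h was 0.21 ± 0.19 (SE), which was not called. ITGB5, which pairs with ITGAV and binds vitronectin, had group means of 58.5 TPM in DMSO, 68.3 at 144 h and 71.1 long-term, with no call. ITGB2, the leukocyte integrin beta subunit, was low throughout: 0.577 ± 0.278 TPM in DMSO and 1.39 ± 0.168 TPM at 144 h (SD, n = 3). Its 144 h call ended without DMSO replicate 1, DMSO replicate 3 or 144 h replicate 1, at adjusted p of 0.0653 to 0.0898.

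Integrin alpha subunits moved in opposite directions. ITGA3, which pairs with ITGB1 as a laminin receptor, had 2.59, 3.59 and 3.75 TPM in DMSO, 5.29, 6.44 and 6.31 at 24 h and 7.82, 7.17 and 9.30 at 48 h. It reached 9.42, 9.06 and 9.23 TPM at 96 h and 11.2, 11.5 and 10.01 at 144 h, and had 8.78, 8.58 and 8.17 long-term. Every treated library lay above every DMSO library. The log2 fold change was 0.71 ± 0.11 (SE), adjusted p = 5.45e-04 at 24 h, 1.48 ± 0.11 (SE), adjusted p = 3.08e-08 at 144 h and 1.15 ± 0.11 (SE), adjusted p = 2.86e-07 long-term. ITGA6, also a laminin-binding alpha subunit, had 14.99, 15.8 and 13.7 TPM in DMSO, 13.9, 12.6 and 14.03 at 24 h and 11.6, 11.7 and 10.1 at 48 h. It had 9.06, 10.2 and 7.53 TPM at 96 h, 9.76, 5.81 and 7.41 at 144 h and 2.93, 3.87 and 2.88 long-term. From 48 h on no library overlapped DMSO, and the long-term libraries were the lowest of all. ITGA6 changed by -0.89 ± 0.14 (SE), adjusted p = 1.10e-04 at 144 h and by -1.91 ± 0.14 (SE), adjusted p = 1.39e-08 long-term.

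The order of ITGA6 and ITGB4, the subunits of one receptor, turned over. ITGA6 was above ITGB4 in all 3 libraries of DMSO, 24 h and 48 h, in 1 of 3 at 96 h, and in 0 of 3 at 144 h and long-term. The mean levels were 14.8 and 2.56 TPM in DMSO and 3.23 and 10.8 TPM long-term. This comparison of levels was made after the values were seen.

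ITGA5, which pairs with ITGB1 as the fibronectin receptor, rose and later fell. Its libraries had 11.2, 12.4 and 9.25 TPM in DMSO, 14.7, 14.1 and 13.1 at 24 h and 14.8, 14.1 and 14.9 at 48 h. They had 16.01, 18.3 and 14.2 TPM at 96 h, 15.2, 14.1 and 16.00 at 144 h and 4.48, 5.47 and 4.51 long-term. All short-term libraries were above DMSO and all long-term libraries below it. ITGA5 changed by 0.53 ± 0.11 (SE), adjusted p = 0.00137 at 96 h, 0.44 ± 0.11 (SE), adjusted p = 0.00329 at 144 h and -1.03 ± 0.11 (SE), adjusted p = 5.70e-07 long-term. ITGAE, which pairs with ITGB7 and binds E-cadherin, had 36.4, 38.5 and 35.6 TPM in DMSO, 38.4, 37.1 and 43.5 at 144 h and 30.6, 35.05 and 27.4 long-term. Its long-term values lay below the DMSO range, with a log2 fold change of -0.25 ± 0.10 (SE). That call ended without any of 5 libraries (each DMSO library, long-term replicates 1 and 3), at adjusted p of 0.0595 to 0.217, and under all 3 other scalings, where it reached 0.538.

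ITGA2B, the platelet fibrinogen receptor subunit, had 1.79, 1.92 and 1.01 TPM in DMSO, 2.82, 3.70 and 2.14 at 144 h and 1.58, 2.33 and 1.20 long-term. ITGA7, a laminin receptor subunit best known from muscle, had 2.35, 2.83 and 4.56 TPM in DMSO, 4.02, 5.54 and 2.72 at 144 h and 3.22, 1.34 and 2.04 long-term. The 144 h values of ITGA2B lay above DMSO, whereas those of ITGA7 overlapped it in both groups. Leaving out DMSO replicate 3 or 144 h replicate 1 or 2 ended the ITGA2B call at 144 h, at adjusted p of 0.0609 to 0.138. ITGAV, the alpha subunit of vitronectin receptors, and ITGA2, a collagen receptor subunit, had DMSO means of 10.5 and 0.953 TPM, and long-term means of 9.54 and 0.767 TPM, with no call. In all, 3 of 8 alpha and 2 of 4 beta subunits rose at 144 h, and 1 alpha subunit fell; long-term, 1 of 8 alpha and 1 of 4 beta subunits were higher and 3 and 1 lower. These are 50% of each family in either comparison, near the 42.9% and 52.0% of all genes called.

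**Figure D3:**
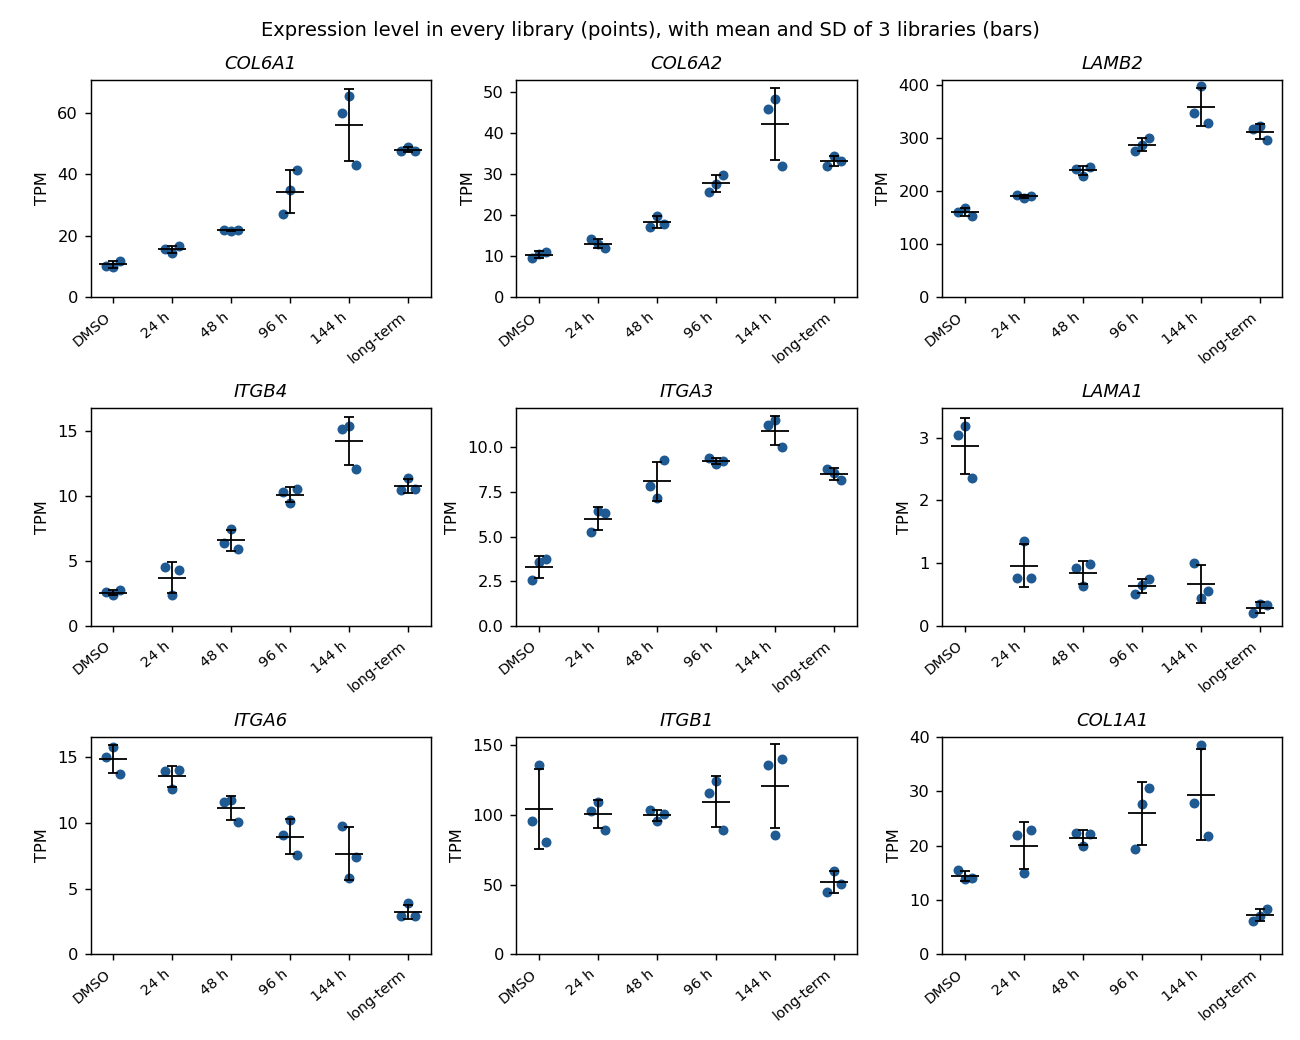
TPM of 9 genes in every library (points), with the mean and SD of the 3 libraries of each group (bars); each panel has its own axis from 0. COL6A1, COL6A2, LAMB2, ITGB4 and ITGA3 lie above DMSO at 144 h and long-term, LAMA1 and ITGA6 lie below, and ITGB1 and COL1A1 are lowest long-term.

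Of the 6 laminin genes, 3 rose and 1 fell at 144 h, where 42.9% of all genes were called, and 1 was higher and 1 lower long-term against DMSO, where 52.0% were. The long-term share of laminins called, 33.3%, was below that of all genes. LAMB2 was the most abundant laminin chain and was called higher in each comparison with DMSO, although its 24 h call ended under several alternatives. It encodes a beta chain of basement membranes, and its libraries had 161, 168 and 154 TPM in DMSO, 192, 186 and 191 at 24 h and 241, 229 and 246 at 48 h. They had 275, 286 and 299.7 TPM at 96 h, 346, 397 and 329 at 144 h and 317, 321 and 295 long-term. Every treated library was above every DMSO library. LAMB2 changed by 0.56 ± 0.06 (SE), adjusted p = 1.09e-05 at 48 h, 1.14 ± 0.06 (SE), adjusted p = 7.93e-10 at 144 h and 0.94 ± 0.06 (SE), adjusted p = 3.66e-09 long-term.

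LAMB1, the alternative beta chain, was higher at 96 h and 144 h. It had 4.79, 3.65 and 4.46 TPM in DMSO, 3.87, 6.03 and 4.27 at 24 h and 5.93, 5.09 and 7.38 at 48 h. It had 9.76, 8.99 and 9.08 TPM at 96 h, 12.2, 13.9 and 11.1 at 144 h and 4.18, 3.46 and 4.19 long-term. The 96 h and 144 h libraries lay above all DMSO libraries, and the long-term libraries overlapped DMSO. LAMB1 changed by 1.34 ± 0.14 (SE), adjusted p = 1.47e-06 at 144 h and by -0.10 ± 0.14 (SE) long-term, which was not called. Both beta chains were thus higher at 144 h, and long-term against 144 h LAMB1 changed by -1.44 ± 0.14 (SE), adjusted p = 7.20e-07, while LAMB2 changed by -0.20 ± 0.06 (SE) and had a positive value of 0.044 under median-of-ratios scaling.

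LAMA1, an alpha chain best known from the embryo, fell early. Its libraries had 3.05, 3.19 and 2.35 TPM in DMSO, 0.77, 1.35 and 0.76 at 24 h and 0.92, 0.64 and 0.98 at 48 h. They had 0.51, 0.65 and 0.74 TPM at 96 h, 1.01, 0.44 and 0.56 at 144 h and 0.20, 0.35 and 0.33 long-term. No treated library reached the lowest DMSO library. LAMA1 changed by -0.99 ± 0.15 (SE), adjusted p = 4.88e-04 at 24 h, -1.22 ± 0.15 (SE), adjusted p = 9.02e-06 at 144 h and -1.57 ± 0.15 (SE), adjusted p = 3.03e-07 long-term.

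LAMA5, the main alpha chain of adult epithelial basement membranes, had 79.9, 75.8 and 82.2 TPM in DMSO, 145, 165 and 77.5 at 144 h and 104, 104 and 98.5 long-term. At 144 h, replicates 1 and 2 were far above DMSO and replicate 3 lay within the DMSO range, whereas all long-term libraries were above it. The log2 fold change at 144 h was 0.63 ± 0.19 (SE), adjusted p = 0.0122. The adjusted p was 0.0622 without 144 h replicate 1 and 0.0727 without replicate 2, and over all alternatives it ran from 1.73e-06, without 144 h replicate 3, to 0.102. COL18A1, COL6A1, COL6A2 and COL1A1 were also lowest in replicate 3 of the 144 h group. LAMC1, the gamma chain of most laminins, had 117 ± 9.60 TPM in DMSO, 92.2 ± 5.35 TPM at 24 h, 119.8 ± 14.9 TPM at 144 h and 127 ± 17.1 TPM long-term (SD, n = 3), and no comparison with DMSO called it. LAMC3, a less common gamma chain, had means of 1.46 TPM in DMSO, 2.08 TPM at 144 h and 1.52 long-term.

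On the log2(TPM + 1) scale the largest increases of the collagens were in type VI; that scale understates low genes such as COL5A1, with means of 0.213 TPM in DMSO and 1.95 at 144 h, and COL27A1, with 0.70 and 4.70. COL6A1 and COL6A2 encode chains of the microfibrils found beside basement membranes. COL6A1 had 10.4, 10.02 and 12.02 TPM in DMSO, 15.8, 14.4 and 16.6 at 24 h and 21.9, 21.6 and 21.97 at 48 h. It had 27.2, 34.8 and 41.3 TPM at 96 h, 60.02, 65.5 and 43.00 at 144 h and 47.6, 48.99 and 47.6 long-term. All treated libraries were above all DMSO libraries. COL6A1 changed by 0.95 ± 0.14 (SE), adjusted p = 1.56e-04 at 48 h, 2.26 ± 0.14 (SE), adjusted p = 2.96e-09 at 144 h and 2.06 ± 0.14 (SE), adjusted p = 4.03e-09 long-term.

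COL6A2 lay close to COL6A1 in level. Its libraries had 9.54, 10.7 and 11.2 TPM in DMSO, 14.3, 13.1 and 12 at 24 h and 17.2, 19.9 and 18.03 at 48 h. They had 25.8, 27.7 and 29.97 TPM at 96 h, 46.02, 48.5 and 32.1 at 144 h and 31.99, 34.5 and 33.2 long-term. No treated library overlapped DMSO, and at 144 h replicate 3 was the lowest for both genes. COL6A2 changed by 1.89 ± 0.12 (SE), adjusted p = 4.16e-09 at 144 h and 1.58 ± 0.12 (SE), adjusted p = 1.70e-08 long-term. The genes lie 93.05 kb apart on the same strand of chromosome 21 in GENCODE 29 (GRCh38). ITGB2 and COL18A1 lie in the same stretch of 1.25 Mb, in which 12 other genes were tested. Of these 6 were higher and 3 lower at 144 h, and 2 higher and 5 lower long-term, with a highest log2 fold change of 0.91 at 144 h. Among all genes 26.6% were higher and 16.4% lower at 144 h, and 18.1% higher and 33.9% lower long-term.

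The promoter of COL6A2 is shown because the gene's increase was among the largest on the log2(TPM + 1) scale, and that of LAMB2 because it was the most abundant of the 36 genes. Each is the 250 bases before the RefSeq start in GRCh38.p14, 5′ to 3′ on the gene's strand, with GGGCGG, the core of a GC box, and TATAAA, the core of a TATA box, on either strand, in capitals. The windows are chr21:46097862-46098111 on the plus strand and chr3:49133051-49133300 on the minus strand.
COL6A2: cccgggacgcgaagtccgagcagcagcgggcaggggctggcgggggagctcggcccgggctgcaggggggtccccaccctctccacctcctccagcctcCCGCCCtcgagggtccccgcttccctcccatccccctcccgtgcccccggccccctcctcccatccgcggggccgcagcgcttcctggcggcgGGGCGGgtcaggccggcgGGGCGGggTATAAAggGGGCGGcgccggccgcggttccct
LAMB2: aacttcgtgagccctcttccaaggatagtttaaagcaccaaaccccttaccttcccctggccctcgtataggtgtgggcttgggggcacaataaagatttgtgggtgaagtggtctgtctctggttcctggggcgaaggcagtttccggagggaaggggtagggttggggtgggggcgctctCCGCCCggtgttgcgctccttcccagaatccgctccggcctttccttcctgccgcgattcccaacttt
In COL6A2 the letters GGGCGG occur 4 times, 3 of them within 58 bases of the start, and TATAAA begins 32 bases before it. LAMB2 has 1 GGGCGG, read on the opposite strand. The GC content of the windows was 79.6% for COL6A2 and 58.4% for LAMB2, where the median of all windows was 58%. Of the 36 genes, 25 matched a window. The median GC content of these windows was 70.4%, and its part in the GGGCGG share below was not tested. GGGCGG was in 17 of these 25, where 42.3% of all 27305 windows hold it, and TATAAA was in 3 (COL6A2, COL7A1 and ITGA6), where 11.1% of all windows hold it. AGAACA, one arm of a steroid hormone response element, was in the windows of COL5A1 and ITGA6 (12.4% of all windows), and the AP-1 letters TGANTCA were in none of the 25 (6.60% of all windows). A match is a description of letters, not a binding site, and a missing match says nothing of the factor. COL1A1, COL2A1, COL5A2, COL6A1, COL9A3, ITGA3, ITGA7, ITGB2, ITGB4, LAMA1 and LAMC3 were not matched.

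Several fibril-forming collagens were higher at 144 h than in DMSO. COL1A1, a chain of type I collagen, had 15.6, 13.9 and 13.98 TPM in DMSO, 22.03, 15.04 and 22.9 at 24 h and 22.4, 19.9 and 22.1 at 48 h. It had 19.5, 27.7 and 30.6 TPM at 96 h, 27.8, 38.4 and 21.9 at 144 h and 6.21, 7.14 and 8.39 long-term. From 48 h to 144 h every library was above DMSO, and long-term every library was below it. COL1A1 changed by 0.78 ± 0.19 (SE), adjusted p = 0.00625 at 96 h, 0.94 ± 0.19 (SE), adjusted p = 9.50e-04 at 144 h and -0.92 ± 0.19 (SE), adjusted p = 8.37e-04 long-term. COL27A1, a fibrillar collagen of cartilage, had 0.50, 0.76 and 0.84 TPM in DMSO, 4.27, 6.49 and 3.33 at 144 h and 3.30, 2.71 and 2.79 long-term. Both treated groups lay above DMSO, with log2 fold changes of 1.71 ± 0.19 (SE), adjusted p = 2.07e-06 and 1.21 ± 0.19 (SE), adjusted p = 4.94e-05.

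COL5A1 and COL5A2, chains of a collagen that regulates fibril width, were near or below 2 TPM. COL5A1 was at 0.213 ± 0.12 TPM in DMSO, 1.95 ± 0.663 TPM at 144 h and 1.58 ± 0.145 TPM long-term (SD, n = 3), with calls at both. COL5A2 was at 0.83 ± 0.0985 TPM, 1.64 ± 0.124 TPM and 0.723 ± 0.0551 TPM in the same groups, with a call at 144 h, where its log2 fold change was 0.53 ± 0.11 (SE), adjusted p = 0.00127. COL2A1, the main fibrillar collagen of cartilage, was highest at 96 h, at 1.18 ± 0.267 TPM against 0.22 ± 0.0781 TPM in DMSO, and long-term it was at 0.0267 ± 0.0379 TPM. Its 144 h call ended without DMSO replicate 1 or 2 or 144 h replicate 1 or 2, at adjusted p of 0.0738 to 0.117. COL11A2, a minor fibrillar chain, had no call and a DMSO mean of 0.877 TPM.

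Collagens that decorate fibrils split. COL16A1, a fibril-associated collagen, had 0.49, 1.08 and 0.89 TPM in DMSO, 2.03, 1.57 and 1.79 at 144 h and 3.26, 2.62 and 2.69 long-term. Both treated groups were above DMSO, and the long-term libraries were above those of 144 h. COL16A1 changed by 0.63 ± 0.16 (SE), adjusted p = 0.00365 at 144 h and by 1.09 ± 0.16 (SE), adjusted p = 1.91e-05 long-term. COL9A2 and COL9A3 encode chains of type IX collagen. COL9A2 had 1.73, 1.64 and 1.70 TPM in DMSO, 5.50, 4.69 and 3.74 at 144 h and 2.38, 2.33 and 1.18 long-term, while COL9A3 had 7.11, 8.45 and 8.87 TPM in DMSO, 8.70, 9.34 and 6.84 at 144 h and 4.05, 2.99 and 4.14 long-term. COL9A2 was above DMSO at 144 h and overlapped it long-term, whereas COL9A3 overlapped it at 144 h and was below it long-term. The log2 fold change of COL9A2 at 144 h was 1.06 ± 0.21 (SE), adjusted p = 5.71e-04, and that of COL9A3 long-term was -0.96 ± 0.13 (SE), adjusted p = 1.57e-05.

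COL18A1, a basement membrane collagen whose end is released as endostatin, had 7.81, 6.21 and 7.58 TPM in DMSO, 17.5, 20.3 and 11.02 at 144 h and 16.3, 15.8 and 15.1 long-term. No library of either treated group overlapped DMSO. The changes were 1.04 ± 0.16 (SE), adjusted p = 8.13e-05 at 144 h and 1.03 ± 0.16 (SE), adjusted p = 5.68e-05 long-term. COL23A1, a transmembrane collagen, fell from 1.52 ± 0.16 TPM to 0.667 ± 0.119 TPM at 144 h and 0.17 ± 0.0265 TPM long-term (SD, n = 3), with log2 fold changes of -0.60 ± 0.11 (SE), adjusted p = 4.13e-04 and -1.11 ± 0.11 (SE), adjusted p = 4.58e-07. COL7A1, the anchoring fibril collagen, was at 15.8 ± 1.38 TPM in DMSO and 10.6 ± 1.74 TPM long-term and was not called, although its long-term libraries did not overlap DMSO. COL26A1 was higher long-term, by 0.56 ± 0.14 (SE), adjusted p = 0.00341. Its 144 h call ended without DMSO replicate 1 or 3 or 144 h replicate 1 or 2, at adjusted p of 0.108 to 0.144. Of 18 collagens, 11 rose and 2 fell at 144 h, beside 26.6% higher and 16.4% lower among all genes. Long-term, 8 were higher and 4 lower, beside 18.1% and 33.9% of all genes.

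Type IV collagen was represented mainly by COL4A5. COL4A5 and COL4A6 encode network chains of epithelial basement membranes and lie head to head on the X chromosome, 346 bases apart in GENCODE 29. COL4A5 was at 38.6 ± 5.62 TPM in DMSO, 29.6 ± 6.90 TPM at 24 h, 42.9 ± 7.83 TPM at 144 h and 61.03 ± 9.64 TPM long-term (SD, n = 3). COL4A6 was at 1.0 ± 0.0700 TPM, 0.69 ± 0.0624 TPM, 0.49 ± 0.0436 TPM and 1.02 ± 0.206 TPM in those groups. Long-term libraries of COL4A5 were above DMSO, with a log2 fold change of 0.65 ± 0.17 (SE), adjusted p = 0.00448, while those of COL4A6 overlapped it. At 144 h COL4A6 changed by -0.42 ± 0.11 (SE), adjusted p = 0.00524, and COL4A5 changed by 0.14 ± 0.17 (SE) without a call. COL4A2 was at 2.03 ± 0.336 TPM in DMSO and 1.05 ± 0.486 TPM long-term, where it was called lower; that call ended without long-term replicate 3, at adjusted p of 0.0548. The pair COL4A5 and COL4A6 was chosen for a closer look after its values were seen.

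The promoters of this head-to-head pair share sequence, which is why they are shown. Each line is the 250 bases before the RefSeq start in GRCh38.p14, 5′ to 3′ on the gene's own strand, with CCAAT on either strand in capitals. The windows are chrX:108439588-108439837 on the plus strand and chrX:108439459-108439708 on the minus strand.
COL4A5: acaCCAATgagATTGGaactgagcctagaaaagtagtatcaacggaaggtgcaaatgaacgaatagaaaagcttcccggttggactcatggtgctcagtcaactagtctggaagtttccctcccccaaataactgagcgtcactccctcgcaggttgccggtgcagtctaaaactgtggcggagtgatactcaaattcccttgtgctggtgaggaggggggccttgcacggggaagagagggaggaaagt
COL4A6: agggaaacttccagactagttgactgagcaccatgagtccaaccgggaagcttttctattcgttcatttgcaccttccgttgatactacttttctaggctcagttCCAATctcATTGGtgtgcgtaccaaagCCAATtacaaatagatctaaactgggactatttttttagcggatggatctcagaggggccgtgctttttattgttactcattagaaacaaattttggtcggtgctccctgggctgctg
The windows share 121 bases, read on opposite strands. Within the shared bases lies a pair of CCAAT matches in opposite orientation, which begin 247 and 239 bases before the start of COL4A5 and 145 and 137 bases before that of COL4A6. CCAAT was in 4 of the 25 matched windows, those of COL4A2, COL4A5, COL4A6 and ITGA2B, where 33.0% of all windows hold it.

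From 24 h to 144 h, 17 of the 36 genes rose and 1 fell, beside 29.7% of all genes called, 18.6% higher and 11.1% lower, and 19 did not overlap, beside 40.4% of all genes. The largest rises were those of COL6A1 (1.76 ± 0.14 SE, adjusted p = 1.63e-07), ITGB4 (1.72 ± 0.15 SE, adjusted p = 5.04e-07) and COL6A2 (1.59 ± 0.12 SE, adjusted p = 8.85e-08). LAMB1 changed by 1.24 ± 0.14 (SE), adjusted p = 7.95e-06. ITGA6 was the gene that fell, at -0.77 ± 0.14 (SE), adjusted p = 8.02e-04. Under median-of-ratios scaling 14 rose and 1 fell.

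Between 144 h and long-term treatment most called genes went down. Of the 36, 3 were higher and 17 lower, beside 46.1% of all genes called, 9.23% higher and 36.8% lower, and 20 did not overlap, beside 47.8% of all genes. With median-of-ratios scaling the counts were 6 higher and 10 lower, and among all genes 52.1% of calls were then higher where 20.04% had been. Without long-term replicate 3 the count was 13. The lower calls that no left-out library and no scaling ended included COL1A1 (-1.85 ± 0.19 SE, adjusted p = 1.19e-06), ITGA5 (-1.47 ± 0.11 SE, adjusted p = 1.57e-08), LAMB1 (-1.44 ± 0.14 SE, adjusted p = 7.20e-07), ITGB1 (-1.18 ± 0.19 SE, adjusted p = 1.25e-04) and ITGA6 (-1.02 ± 0.14 SE, adjusted p = 2.98e-05). COL9A3 changed by -0.97 ± 0.13 (SE), adjusted p = 2.05e-05 and COL9A2 by -0.95 ± 0.21 (SE), adjusted p = 0.00141. COL4A6 was higher, by 0.44 ± 0.11 (SE), adjusted p = 0.00418. The plot of long-term against 144 h orders all 36.

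**Figure D4:**
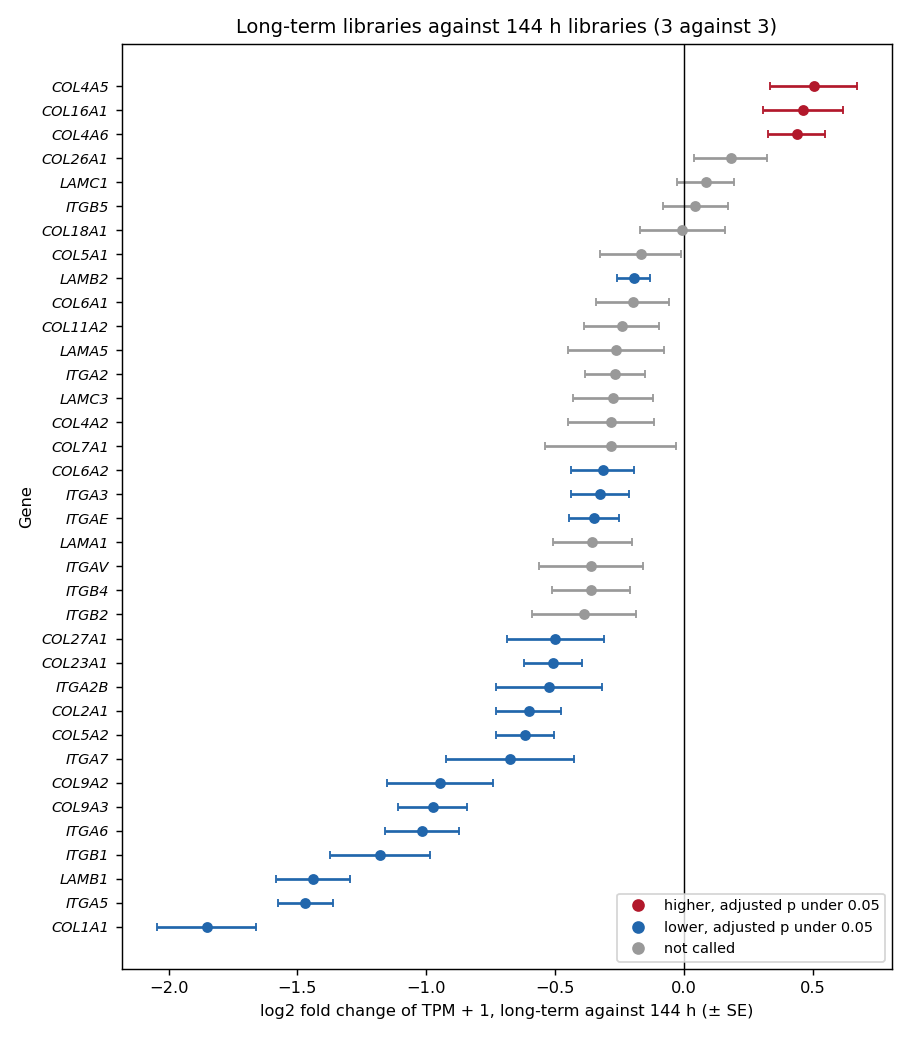
Log2 fold change of TPM + 1 for long-term against 144 h libraries (x axis, bars are SE) for each of the 36 genes (y axis); blue points are lower and red points higher at an adjusted p under 0.05, grey points were not called. COL1A1, at -1.85, is the lowest, and COL4A5, at 0.50, the highest.

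Of the 19 genes higher at 144 h than in DMSO, 11 were lower long-term than at 144 h, 7 were not called and 1, COL16A1, was higher, a call that ended without 144 h replicate 2 or long-term replicate 1, at adjusted p of 0.0734 to 0.0940. Of the 11 lower calls, those of COL27A1, COL6A2, ITGA2B, ITGA3 and LAMB2 ended under each of the 3 other scalings, whereas those of COL1A1, COL2A1, COL5A2, COL9A2, ITGA5 and LAMB1 did not end under any of them. Among all 4294 genes higher at 144 h, 52.5% were lower long-term than at 144 h on the deposited scale. That share also rests on the scale, since higher calls made up 20.04% of all calls for long-term against 144 h and 52.1% under median-of-ratios scaling. These comparisons share the 144 h libraries. Relative to DMSO, COL1A1 and ITGA5 were higher at 144 h and lower long-term. COL16A1, COL18A1, COL26A1, COL27A1, COL5A1, COL6A1, COL6A2, ITGA3, ITGB4 and LAMB2 were higher in both, and COL23A1, ITGA6 and LAMA1 lower in both.

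Other genes of the adhesion and matrix system were described from lists chosen by function. The limit of the filter holds here too. NEDD9, TNC, SMOC1, FRAS1 and TLL1 were below 1 TPM in every DMSO library and passed only through treated libraries. SMOC1, FRAS1 and TLL1 were below 1 TPM at 144 h too. TNS4 passed through DMSO. The calls of these genes are thus not independent of the filter. Of 38 tested focal adhesion adaptors and kinases, 16 were higher and 5 lower at 144 h, and 11 and 11 long-term. Of all genes 42.9% were called at 144 h, 26.6% higher and 16.4% lower, and 52.0% long-term, 18.1% higher and 33.9% lower. The medians of the list were 0.17 and -0.0023 on the log2 scale, beside 0.07 and -0.12 for all genes. NEDD9, a focal adhesion scaffold, rose from 0.813 TPM in DMSO to 2.90 at 144 h and 5.60 long-term (1.85 ± 0.11 SE, adjusted p = 8.21e-10). TNS4, an adaptor on integrin beta tails, fell from 1.39 to 0.223 TPM at 144 h (-0.96 ± 0.11 SE, adjusted p = 4.58e-06). LIMS1, a partner of integrin-linked kinase, had 11.3 TPM in DMSO and 4.15 long-term (-1.26 ± 0.13 SE, adjusted p = 8.36e-07).

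Fibronectin was higher at 144 h and long-term among the other glycoproteins that integrins bind. Of 10 tested, 6 were higher and 1 lower at 144 h, and 4 and 3 long-term, with medians of 0.63 and -0.03. Of all genes 42.9% and 52.0% were called in the same order, with medians of 0.07 and -0.12. FN1, which encodes fibronectin, the ligand of the receptor of ITGA5 and ITGB1, had means of 42.2 TPM in DMSO, 105 at 144 h and 172 long-term, with log2 fold changes of 1.29 ± 0.08 (SE), adjusted p = 2.59e-09 and 2.01 ± 0.08 (SE), adjusted p = 3.95e-12. Of these 3 groups FN1 was highest long-term, where ITGA5 and ITGB1 were lowest. TNC, which encodes tenascin-C, had 0.0667, 5.88 and 23.9 TPM (4.51 ± 0.26 SE, adjusted p = 5.12e-10 long-term). MFGE8, a ligand of integrins with an ITGAV subunit, had 17.2 TPM in DMSO, 34.04 at 144 h and 11.3 long-term.

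Among 12 tested partners of the basement membrane, 7 were higher and 1 lower at 144 h, and 4 and 3 long-term, with medians of 0.41 and 0.02. Of all genes 42.9% and 52.0% were called in the same order, with medians of 0.07 and -0.12. MATN2, a matrilin, had 1.14 TPM in DMSO, 31.9 at 144 h and 30.3 long-term (3.94 ± 0.13 SE, adjusted p = 6.16e-13 at 144 h). SPARC was the 1 called lower at 144 h, at 1.87 TPM in DMSO and 0.123 at 144 h (-1.34 ± 0.14 SE, adjusted p = 1.69e-06). SMOC1 had 0.0333 TPM in DMSO, 0.0633 at 144 h and 12.6 long-term (3.72 ± 0.11 SE, adjusted p = 5.86e-14), and FRAS1, a protein beneath epithelial basement membranes, had 0.0933, 0.387 and 5.12 TPM. Of 14 tested other matrix receptors, 7 were higher and 2 lower at 144 h, and 5 and 3 long-term. Their medians were 0.39 and 0.12, beside the same shares and medians of all genes. BCAM, a laminin alpha-chain receptor that is no integrin, had 15.2 TPM in DMSO, 52.1 at 144 h and 16.3 long-term (1.71 ± 0.10 SE, adjusted p = 7.30e-10 at 144 h). SDC4, a syndecan of focal adhesions, had 5.96, 28.2 and 19.5 TPM, and DDR1, a collagen receptor kinase, 92.1, 201 and 128 TPM. Among those lower long-term, HMMR had 65.7 TPM in DMSO and 30.2 long-term (-1.09 ± 0.11 SE, adjusted p = 6.50e-07). RPSA had 663 TPM in DMSO and 506 long-term (-0.39 ± 0.09 SE, adjusted p = 0.00139).

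Collagen processing genes numbered 29 tested, of which 12 were higher and 7 lower at 144 h, and 6 and 12 long-term, with medians of 0.19 and -0.10. Of all genes 42.9% and 52.0% were called in the same order, with medians of 0.07 and -0.12. PCOLCE, which enhances procollagen cleavage, had 9.63 TPM in DMSO and 39.8 at 144 h (1.92 ± 0.13 SE, adjusted p = 7.86e-09). TLL1, a procollagen-cleaving protease, had 0.0367 TPM at 144 h and 4.87 long-term (2.49 ± 0.13 SE, adjusted p = 3.68e-10). PXDN, which cross-links type IV collagen, had 7.61 TPM in DMSO, 7.62 at 144 h and 0.57 long-term (-2.45 ± 0.14 SE, adjusted p = 3.26e-10). Of 17 tested matrix proteases and inhibitors, 8 were higher and 2 lower at 144 h, and 4 and 7 long-term. Their medians were 0.26 and 0.04, beside the same shares and medians of all genes. ADAMTS1 had 25.7 TPM in DMSO, 32.5 at 144 h and 0.207 long-term (-4.47 ± 0.09 SE, adjusted p = 8.28e-16). MMP16, a membrane-bound protease, had 7.40, 20.9 and 0.103 TPM, and TIMP2, a protease inhibitor, 4.78, 22.8 and 10.3 TPM.

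Some of these genes share exons with a gene on the opposite strand in GENCODE 29. COL18A1 shares 1401 bases with SLC19A1, ITGAE 427 bases with HASPIN, LAMA5 244 bases with ADRM1 and 118 with LAMA5-AS1, LAMB1 70 bases with DLD, and COL9A3 45 bases with TCFL5. The libraries were strand-specific per the labels' protocols, but whether strand was used in counting is not given in the sources used here, so reads from these stretches may be split.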

How the data were processed

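RNA was extracted from 16D cells with RNeasy, and per the labels' protocols poly(A) libraries were strand-specific and read as single 50 bp reads. The submitters' processing notes name STAR, RSEM, Partek, hg38 and GRCh38, without roles or versions. The authors deposited TPM values for each gene; no read totals are used here, so depth and counting error are unknown. The authors' 2 fold columns were not used.

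Values were taken as log2(TPM + 1), and genes with at least 1 TPM in 3 libraries were kept. Group differences were tested with limma 3.58.1 (R 4.3.3) in 1 model of 18 libraries and 6 group means with a variance trend, two-sided, with Benjamini-Hochberg adjustment over all genes in each of 7 comparisons. Called means an adjusted p under 0.05. The test was checked on simulated data. Other steps used Python 3.11.15, numpy 2.4.6, pandas 2.3.3 and matplotlib 3.10.9. Positions are from GENCODE 29 and promoters from RefSeq GRCh38.p14.

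The genes, the lists and the tests were chosen with earlier results of these data known. Values in every library are given for up to 8 genes of each family (integrins, collagens, laminins) with the largest change among those called at 144 h, long-term or between them, and a mean of at least 2 TPM in the higher group, and, from each list, genes were drawn from the 4 called with the smallest adjusted p in a comparison. Other genes are given by means. Alternatives were a smaller pseudocount (0.1), a higher filter (5 TPM) or none, median-of-ratios or quantile scaling, TPM recomputed after removal of 37 mitochondrially encoded genes, a fit of both groups alone, no variance trend, the replicate number as a block, and leaving out each library.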

Additional observations from a re-analysis of the deposited data

Results flagged for a closer look

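Libraries of different treatment times differed for the following genes, by limma's direct test between the treated groups with an adjusted p under 0.05 over all genes. One DMSO group served every time point, so drug and time in culture cannot be told apart in these differences. Values are log2 fold changes on the log2(TPM + 1) scale, with 3 libraries in each group.

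Long-term and 144 h libraries differed for 20 of the 36 genes, beside 46.1% of all genes called, 9.23% higher and 36.8% lower. Under median-of-ratios scaling 6 of the 36 were higher and 10 lower. The following values are on the deposited scale. Long-term was higher than 144 h for COL16A1 0.46, COL4A5 0.50 and COL4A6 0.44. It was lower than 144 h for COL1A1 -1.85, COL23A1 -0.51, COL27A1 -0.50, COL2A1 -0.60, COL5A2 -0.62, COL6A2 -0.32, COL9A2 -0.95, COL9A3 -0.97 and ITGA2B -0.53, and for ITGA3 -0.33, ITGA5 -1.47, ITGA6 -1.02, ITGA7 -0.67, ITGAE -0.35, ITGB1 -1.18, LAMB1 -1.44 and LAMB2 -0.20.

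Libraries of 144 h and of 24 h differed for 18 of the 36 genes, beside 29.7% of all genes called, 18.6% higher and 11.1% lower. The level at 144 h was above that at 24 h for COL18A1 0.96, COL26A1 0.62, COL27A1 1.40, COL4A5 0.53, COL5A1 1.12, COL5A2 0.34, COL6A1 1.76, COL6A2 1.59 and COL9A2 0.65, and for ITGA2B 0.70, ITGA3 0.77, ITGB4 1.72, LAMA5 0.56, LAMB1 1.24, LAMB2 0.90, LAMC1 0.37 and LAMC3 0.61. It was below that at 24 h for ITGA6, at -0.77. The calls among these that ended without single libraries or under another scaling are given in the account of the processing.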

How the results depend on the processing

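The counts of called genes moved by over 1.5 times under few alternatives. A filter of 5 TPM, which by construction tests fewer of the 36 genes, left 3 calls at 24 h (6 before), 7 at 48 h (13), 11 at 96 h (20), 12 at 144 h (23) and 11 for long-term against 144 h (20). Leaving out each library in turn gave 4 to 6 calls at 24 h, 11 to 14 at 48 h, 17 to 19 at 96 h, 18 to 23 at 144 h, 18 to 20 long-term, 13 to 18 for 144 h against 24 h and 13 to 22 for long-term against 144 h, where the lowest was without long-term replicate 3. LAMB2 in long-term against 144 h reversed to 0.044 under median-of-ratios scaling, at adjusted p = 0.696 (0.00546 to 0.696 over its alternatives); the cause was not tested. Of the 32 of 120 calls that some alternative ended, 31 ended without at least 1 library and 19 under another scaling. Against DMSO the latter were COL6A1 and LAMB2 at 24 h, COL5A2 at 96 h, COL26A1, COL2A1, ITGA2B and ITGB2 at 144 h and ITGAE long-term. For 144 h against 24 h, scaling ended the calls of COL4A5, COL5A2, COL9A2 and LAMA5. For long-term against 144 h it ended those of COL27A1, COL6A2, ITGA2B, ITGA3, ITGA7, ITGAE and LAMB2. All genes called at 24 h numbered 1321, became 869 when DMSO replicate 1 was left out and became 2004 under median-of-ratios scaling. Under median-of-ratios scaling the share of higher calls for 144 h against 24 h moved from 62.5% to 48.8%. With the replicate block 5, 13, 19, 23, 19, 17 and 18 genes were called in the order of the comparisons, and 6 calls ended; same-numbered libraries did not deviate together (correlations of -0.16 to 0.14), so the numbers are not taken as pairs. Of 1260 counts of the context lists, 92 moved by over 1.5 times. Depth is unknown, so low genes carry a counting error that was not measured.

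The adjusted p without such a library follows each gene. At 24 h leaving out a library ended the calls of COL6A1 without DMSO replicate 1 or 2 or any 24 h library (0.0561 to 0.134) and LAMB2 without DMSO replicate 1 or 3 or any 24 h library (0.0634 to 0.132). At 48 h it ended those of COL23A1 without DMSO replicate 2 or 48 h replicate 1 (0.0509 to 0.0522), COL27A1 without DMSO replicate 1 (0.0514), COL5A1 without 48 h replicate 3 (0.0543) and ITGA5 without DMSO replicate 3 or 48 h replicate 1 or 3 (0.0544 to 0.0896). At 96 h it ended those of COL16A1 without DMSO replicate 1 (0.0616), COL5A2 without any DMSO library or 96 h replicate 2 or 3 (0.0534 to 0.144) and ITGB2 without DMSO replicate 1 or 96 h replicate 1 (0.0648 to 0.0716). The 144 h calls that ended were COL26A1 without DMSO replicate 1 or 3 or 144 h replicate 1 or 2 (0.108 to 0.144), COL2A1 without DMSO replicate 1 or 2 or 144 h replicate 1 or 2 (0.0738 to 0.117), ITGA2B without DMSO replicate 3 or 144 h replicate 1 or 2 (0.0609 to 0.138), ITGB2 without DMSO replicate 1 or 3 or 144 h replicate 1 (0.0653 to 0.0898) and LAMA5 without 144 h replicate 1 or 2 (0.0622 to 0.0727). Long-term against DMSO they were COL4A2 without long-term replicate 3 (0.0548) and ITGAE without any DMSO library or long-term replicate 1 or 3 (0.0595 to 0.217). For 144 h against 24 h they were COL4A5 without 24 h replicate 2 or 144 h replicate 1 or 2 (0.0762 to 0.152), COL5A2 without 24 h replicate 2 or 144 h replicate 1 or 2 (0.0856 to 0.148), COL9A2 without 24 h replicate 1 or 2 or 144 h replicate 1 or 2 (0.0593 to 0.114), ITGA2B without 24 h replicate 2 or 144 h replicate 2 (0.0778 to 0.0975), LAMA5 without 24 h replicate 1 or 2 or 144 h replicate 1 or 2 (0.0778 to 0.155) and LAMC1 without 24 h replicate 3 or 144 h replicate 1 or 3 (0.0522 to 0.0861). For long-term against 144 h they were COL16A1 without 144 h replicate 2 or long-term replicate 1 (0.0734 to 0.0940), COL27A1 without 144 h replicate 1 or 2 or any long-term library (0.0513 to 0.214), COL4A5 without 144 h replicate 3 or long-term replicate 1 or 2 (0.0609 to 0.117), COL6A2 without 144 h replicate 1 or 2 or any long-term library (0.0542 to 0.192), ITGA2B without 144 h replicate 1 or 2 or long-term replicate 1 or 3 (0.0940 to 0.189), ITGA3 without 144 h replicate 1 or 2 or long-term replicate 3 (0.0770 to 0.0822), ITGA7 without 144 h replicate 1 or 2 or long-term replicate 2 or 3 (0.0822 to 0.156), ITGAE without long-term replicate 3 (0.0549) and LAMB2 without 144 h replicate 2 or long-term replicate 3 (0.0956 to 0.115).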
